A study of Homo sapiens with 5 samples.

Results

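The septins examined here are the 10 human genes SEPT2 to SEPT11, which the deposited count tables carry under date-like names from 02-sept to 11-sept. They were found by those names, and the estimated counts of their transcripts were summed per gene in each of 5 libraries. This gave 10 genes with 224 transcripts, of 35453 gene names in all. The rule reads names and not values, and the values are given as a description without a test. The date-like names stand for septins in every case: the same transcript identifiers carry the symbols SEPT2 to SEPT11 in the authors' deposited table of comparisons, and each of the 10 names met 1 symbol there. The 15 transcripts named 05-sept include 2 SEPT5-GP1BB read-through transcripts, which GENCODE release 29 lists as a gene of their own (ENSG00000284874).

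RNA came from KGN cells, an established line grown from a human granulosa cell tumour. All 5 groups were held for 24 h in medium with charcoal-stripped serum and 100 nmol/L androstenedione, the precursor that aromatase turns into oestrogen. The control got no activator (its title says no treatment, whereas the protocol gives it ethanol). The others got follicle-stimulating hormone (FSH) at 100 ng/mL, forskolin (FSK), which activates adenylyl cyclase and so raises cAMP, SC79 at 4 µg/mL, an activator of the kinase AKT, or PMA (phorbol myristate acetate), which switches on protein kinase C. The doses of FSK and PMA are uncertain by unit: the sample labels read 10 mmol/L and 0.1 mmol/L, and the written protocol lost a character before "mol" that denotes micro. Each group is 1 library made from RNA pooled from 3 cultures of different weeks, so there is no replicate error, no p-value was computed, and bracketed 95% intervals cover counting error only.

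Septins are GTP-binding proteins that join end to end into rods and filaments beneath the plasma membrane, on actin bundles and at the cleavage furrow. A rod takes its subunits from 4 groups of related proteins, and within a group one member can take the place of another. Among the septins examined here, the SEPT2 group holds SEPT2, SEPT4 and SEPT5, and the SEPT3 group holds SEPT3 and SEPT9. The SEPT6 group holds SEPT6, SEPT8, SEPT10 and SEPT11 among them, and SEPT7 is the sole member of its own. These lists are not complete, since SEPT1, SEPT12 and SEPT14 are septins too and were left out of every group sum below. Septin filaments are known for building the ring that closes between dividing cells, for stiffening the cell cortex and for guiding vesicles to the membrane.

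The libraries held 50218703 to 58811603 estimated counts on named genes. Counts were brought to a common library size (scaled counts), and a call needed a 2-fold distance between libraries plus 100 scaled counts or more in whichever was higher. All 10 granulosa markers reached 100 scaled counts in some library. In control INHA (61.5), FSHR (92.7) and AMHR2 (98.2) were under 100, and INHA passed it only with FSK (921.5). Of 19 markers of other cell types 7 did, led by KRT18 with up to 50184 scaled counts, PDGFRA with up to 32549 and CD68 with up to 2178, followed by PECAM1, VWF, KDR and DCN. Among defining markers, CD3E was at 0 in every library, CDH5 reached 1.999 and EPCAM 40.6 scaled counts, and none of 3 oocyte markers reached 100.

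Per annotated transcript length, SEPT2, SEPT7 and SEPT9 stood highest in every library, with a limit for SEPT7 given below. In the control library SEPT2 stood at 564.8, SEPT7 at 457.4 and SEPT9 at 420.6 TPM (counts per kilobase of annotated transcript, brought to the same total in every library). SEPT11 followed at 166.6, SEPT10 at 130.7 and SEPT8 at 46.7 TPM. SEPT6 had 16.1, SEPT4 7.35, SEPT5 2.61 and SEPT3 0.445 TPM, so the lowest and the highest septin differed by over 3 orders of magnitude. Over all libraries SEPT2 ranged from 458.4 to 564.8 TPM, SEPT7 from 388.9 to 457.4 and SEPT3 from 0.182 to 0.727. The SEPT7 level rests on short forms. In control SEPT7-217 (1464 bases, annotated for nonsense-mediated decay) held 52.6% of SEPT7 counts and SEPT7-205 (1362 bases) 36.1%. The gene also has an annotated form of 4399 bases, and counts on longer forms would give a lower TPM. Only 50.8% of the short stretches of sequence in SEPT7-217 occur in no other gene. The assignment of reads to these forms was not tested, so the SEPT7 level and its rank are uncertain. The order of neighbours was not fixed. SEPT10 stood above SEPT11 in the FSK library, at 128.7 against 90.9 TPM, and in the PMA library, at 165.3 against 127.9, and below it in the control, FSH and SC79 libraries.

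The summed level of the 10 genes was highest in control, at 1813 TPM, and lowest with FSK, at 1472 TPM. It was 1718 TPM with FSH, 1670.0 with SC79 and 1593 with PMA. With FSK the makeup by group shifted. The SEPT2 group supplied 31.7% of the summed level in control and 37.8% with FSK, while the SEPT3 group, almost all SEPT9, supplied 23.2% in control and 17.8% with FSK. The SEPT6 group went from 19.9% to 17.9%, and SEPT7 from 25.2% to 26.4%. All these shares, and the summed levels, carry the limit given above for the SEPT7 level. With PMA the SEPT2 group supplied 28.9% and the SEPT6 group 21.6%. In the FSH and SC79 libraries each group stayed within 0.770 percentage points of its control share.

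**Figure D1:**
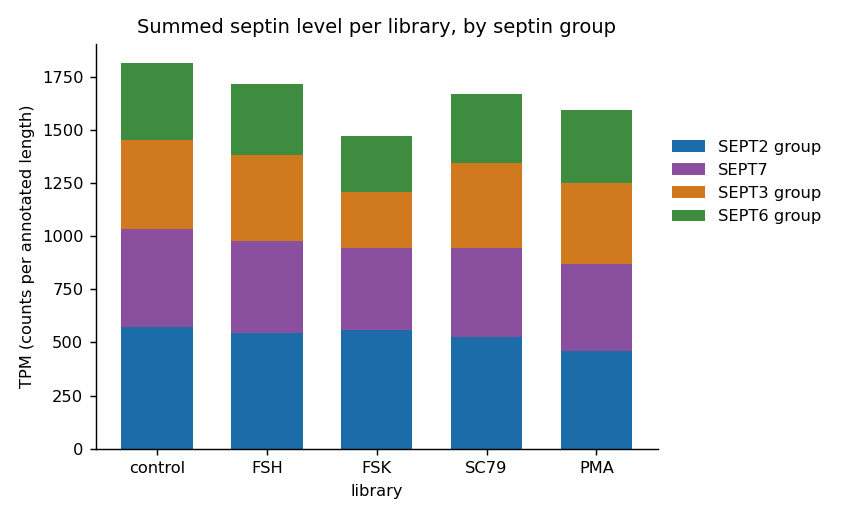
Stacked bars give the summed level of septins 2 to 11 in TPM (per length) for each of the 5 libraries, split by septin group (1 library each, no error bars). The FSK bar is the shortest, at 1472, and its SEPT3 group segment is 262.6 against 421.0 in control. The SEPT7 segments carry the limit given for the SEPT7 level.

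The main septin difference in the FSK library was a lower level of SEPT9, SEPT11 and SEPT8. SEPT11, a SEPT6 group subunit, had 17854 scaled counts in control, 16236 with FSH, 9936 with FSK, 15506 with SC79 and 13202 with PMA. The FSK library was the lowest of the 5, at 1.80-fold below control [1.75 to 1.84]. SEPT9, the SEPT3 group subunit found in most tissues, had 31415 scaled counts in control, 30449 with FSH, 19418 with FSK, 28902 with SC79 and 26594 with PMA. It was 1.62-fold lower with FSK [1.59 to 1.65]. SEPT8, which can stand in for other SEPT6 group subunits, had 4244, 3983, 2606, 3952 and 3113 scaled counts in the same order, and was 1.63-fold lower with FSK [1.55 to 1.71]. For each of the 3 genes the FSK library was the lowest and the PMA library the next lowest. On GRCh38 SEPT11 (ENSG00000138758) spans chr4:76949703-77040384, SEPT9 (ENSG00000184640) chr17:77280569-77500596 and SEPT8 (ENSG00000164402) chr5:132750817-132807241. In RNA of whole cultures, fewer cells that express a gene and less of its RNA per cell cannot be told apart. The summed level of 3 epithelial markers, nearly all KRT18, was 47807 scaled counts in control and 29890 with FSK. That of the 10 granulosa markers was 20003 and 71516. Of these CYP19A1 had 901.6 and 27444, CYP11A1 826.3 and 12450, and STAR 1011.8 and 10091. By contrast FOXL2 had 9976.5 and 10003, NR5A1 5075.5 and 4684, and NR5A2 616.0 and 346.9. The part of these markers in the septin values was not tested.

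With 100 scaled counts or more in the FSK or control library, 0 of 8 septins were at least 2-fold lower with FSK, where 5.43% of 12610 genes were at least 2-fold lower. At a limit of 1.5-fold these 3 genes of the 8 were lower, beside 10.8% of all genes tested. The other genes with many counts stayed near control. SEPT2 had 37917 scaled counts in control and 37522 with FSK (log2 ratio -0.02). SEPT10 had 7444 and 7395 (log2 ratio -0.01), and SEPT6 had 1107 and 1024 (log2 ratio -0.11). SEPT7, which every complete rod contains, had 15190.2 and 13124, a log2 ratio of -0.21. Within the SEPT6 group, then, SEPT11 and SEPT8 lay lower with FSK while SEPT10 and SEPT6 kept within 1.2-fold of control. The median log2 ratio of the 10 genes with FSK was -0.17, beside 0.01 for all 14585 genes with a mean of at least 20 scaled counts, and 9 of the 10 were below 0, beside 48.5% of those genes.

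**Figure D2:**
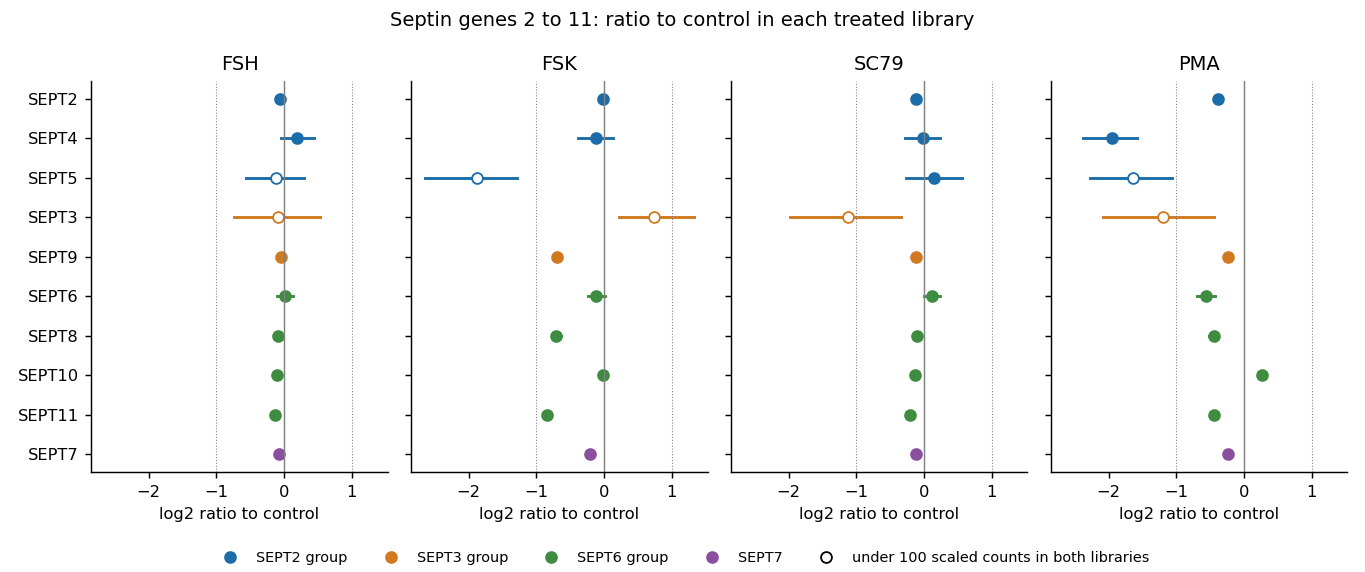
Points give the log2 ratio of each septin gene to control in the 4 treated libraries and lines the exact 95% interval for counting error (1 library a group). Open points had under 100 scaled counts in both libraries and dotted lines mark 2-fold. In the FSK panel SEPT9, SEPT8 and SEPT11 sit between -0.85 and -0.69, and in the PMA panel SEPT4 sits at -1.95.

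SEPT9 is read from several starts along chromosome 17, and the starts differed with FSK. Transcripts that begin within 100 bases of each other in GENCODE release 29 (GRCh38) were summed. The start of SEPT9-203 (chr17:77281410, 3 transcripts) held 72.7% of SEPT9 counts in control. It had 22839 scaled counts in control, 21202 with FSH, 11656 with FSK, 19834 with SC79 and 17622 with PMA. This start was 1.96-fold lower with FSK [1.92 to 2.004]. The start of SEPT9-207 lies further along the gene (chr17:77287891, 3 transcripts) and had 3481 scaled counts in control, 3806 with FSH, 4531 with FSK, 3815 with SC79 and 3858 with PMA. It was highest in the FSK library, at 1.30-fold above control [1.25 to 1.36], and its share of SEPT9 went from 11.1% in control to 23.3% with FSK, beside 12.5% with FSH, 13.2% with SC79 and 14.5% with PMA.

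With FSK the further starts were lower than control, as the first was. Transcripts that begin near SEPT9-201 (chr17:77319515, 4 transcripts) had 1820 scaled counts in control and 958.9 with FSK, and SEPT9-208 (chr17:77450737) had 2235 and 1379. With FSH both were above control, at log2 ratios of 0.05 and 0.17, where the start of SEPT9-203 was at -0.11. With SC79 they were at 0.16 and -0.51 and with PMA at -0.18 and 0.05, where the start of SEPT9-203 was at -0.20 and -0.37. Without SEPT9-207 the rest of SEPT9 had a log2 ratio of -0.91 with FSK, against -0.69 for the whole gene. SEPT9-203 and SEPT9-207 differ at their first exon and in where translation is annotated to begin. The first exon of SEPT9-203 (chr17:77281410-77281554) carries its start codon, at chr17:77281536, so its annotated protein begins upstream of that of SEPT9-207. The first exon of SEPT9-207 (chr17:77287891-77288210) lies in the 5′ untranslated region, and its start codon is at chr17:77402475 in exon 3 (chr17:77402059-77402703). Of the 31-base words of these transcripts only 54 occur in SEPT9-203 alone and 26 in SEPT9-207 alone. SEPT9-201 and SEPT9-208 have 0, so few reads tell these single transcripts apart. Words shared only by transcripts of 1 start were not counted, so how well reads tell the starts apart was not measured. The intervals do not cover the assignment of reads to transcripts.

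**Figure D3:**
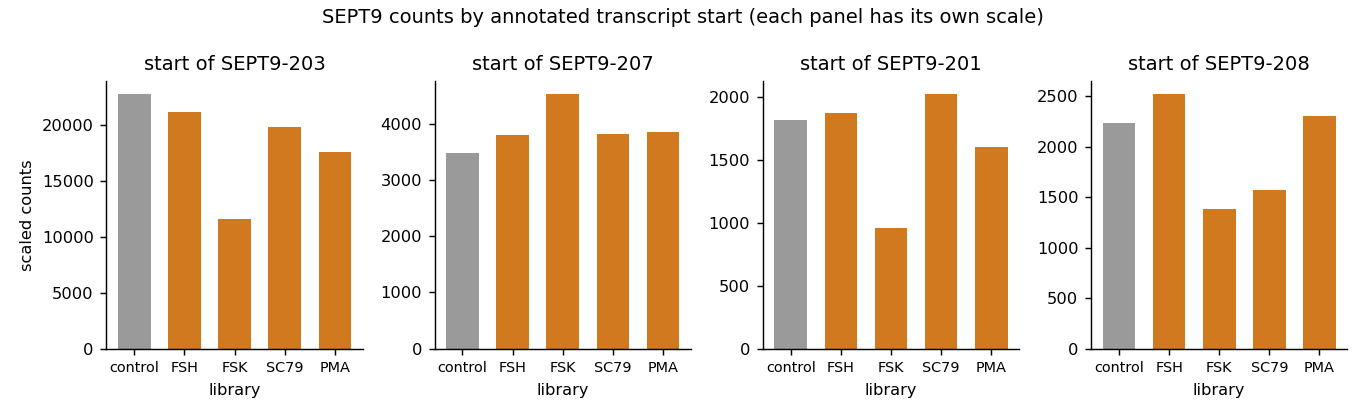
Bars give scaled counts of SEPT9 transcripts summed by annotated start in each of the 5 libraries, 1 panel per start with its own scale (grey, control). With FSK the bar is below control at the starts of SEPT9-203 (11656 against 22839), SEPT9-201 and SEPT9-208 and stands above it at the start of SEPT9-207 (4531 against 3481).

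The sequences before the starts are shown for the SEPT9 pair that went opposite ways with FSK and for SEPT11, the septin tested with the lowest ratio with FSK. They are RefSeq promoter windows on GRCh38.p14, plus strand, 5′ to 3′, each ended before the first base of the named transcript in GENCODE release 29. Capitals mark GC boxes (GGGCGG or its reverse complement), the letters bound by SP1-like factors.
SEPT9-203 upstream, chr17:77281249-77281409: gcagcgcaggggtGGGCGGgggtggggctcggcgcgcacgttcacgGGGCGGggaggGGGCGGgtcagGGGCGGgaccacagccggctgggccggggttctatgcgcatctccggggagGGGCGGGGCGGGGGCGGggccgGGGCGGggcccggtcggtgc
SEPT9-207 upstream, chr17:77287685-77287890: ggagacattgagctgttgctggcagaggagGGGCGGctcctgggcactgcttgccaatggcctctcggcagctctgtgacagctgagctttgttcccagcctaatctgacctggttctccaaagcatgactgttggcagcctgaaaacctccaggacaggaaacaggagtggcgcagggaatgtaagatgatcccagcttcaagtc
SEPT11-201 upstream, chr4:76949502-76949702: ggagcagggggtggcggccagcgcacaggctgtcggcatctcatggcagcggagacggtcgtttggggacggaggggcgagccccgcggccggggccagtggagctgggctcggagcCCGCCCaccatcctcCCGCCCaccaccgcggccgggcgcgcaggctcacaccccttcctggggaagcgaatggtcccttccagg
The stretches are of 161, 206 and 201 bases and hold 8, 1 and 2 GC boxes. The whole 250-base windows before the RefSeq starts hold 9, 2 and 3. Over these windows GC content was 80.4% for SEPT9-203, 58.4% for SEPT9-207 and 73.6% for SEPT11, beside a median of 58.0% over 35116 windows. The dinucleotide CG occurred 32, 4 and 25 times in these windows, beside a median of 11. A GC box was present in 15 of 25 septin windows and in 42.6% of all windows.

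RefSeq windows were at hand for 8 of the 10 genes, 25 windows in all, and SEPT3 and SEPT5 had none. The full cAMP response element, TGACGTCA, the letters bound by CREB, was in 0 of the 25 windows and in 1.65% of all windows. Its half-site TGACG, which the full element also contains, was in 7 of the 25 windows, at SEPT2, SEPT4, SEPT7, SEPT9 and SEPT10, and in 21.2% of all windows. The AP-1 element TGANTCA, bound by the FOS and JUN factors, was in 5 of 25, at SEPT4 and SEPT9, and in 6.57% of all windows. Both strands were searched, and overlapping windows of one gene share sequence. The 3 windows printed in part hold neither element nor half-site. A match or its lack describes the letters of these windows only.

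PMA gave lower values across most of the family, with SEPT4 furthest from control. SEPT4 (ENSG00000108387, chr17:58520250-58540818) is a SEPT2 group subunit whose ARTS isoform is known from apoptosis. It had 251.8 scaled counts in control [222.7 to 283.2], 288.0 with FSH, 231.5 with FSK, 248.7 with SC79 and 64.6 with PMA [49.7 to 82.0]. The PMA library stood alone, and the other 4 lay between 231.5 and 288.0. SEPT4 was 3.90-fold lower with PMA [2.97 to 5.21] and the only one of 8 septins tested to be at least 2-fold lower, where 3.62% of 12648 genes were at least 2-fold lower. Of those genes, 0.474% had a ratio as low as that of SEPT4. Its counts were spread over 11 transcripts with at least 5% of the gene in some library. The fullest of these, SEPT4-203 (first base chr17:58527144, minus strand), had 96.5 scaled counts in control, 185.5 with FSH, 143.7 with FSK, 144.1 with SC79 and 31.3 with PMA. It has no 31-base word to itself, so its split from the other SEPT4 transcripts is uncertain.

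The other septins with PMA differed less. SEPT6 had 749.5 scaled counts against 1107 in control, 1.48-fold lower [1.35 to 1.62]. SEPT8 was 1.36-fold lower [1.30 to 1.43], SEPT11 1.35-fold lower [1.32 to 1.38] and SEPT2, at 29131 against 37917 scaled counts, 1.30-fold lower [1.28 to 1.32]. SEPT9 and SEPT7 were within 1.2-fold of control, at log2 ratios of -0.24 and -0.23. SEPT10 was the exception: it had 7444 scaled counts in control, 6916 with FSH, 7395 with FSK, 6828 with SC79 and 8992 with PMA, so that PMA was the highest library, at 1.21-fold above control [1.17 to 1.25]. Below 0 on the log2 scale were 9 of the 10 genes, beside 50.5% of 14585 genes, and the median log2 ratio was -0.44 beside -0.00. Some markers of other cell types were also higher with PMA. The summed level of 4 immune markers was 841.1 in control and 2226 with PMA, nearly all CD68, with CD3E at 0. That of 4 endothelial markers was 345.6 and 991.6, with CDH5 at most 1.999. Of these PECAM1 had 108.7 in control and 648.2 with PMA, and VWF 98.3 and 237.5. KDR went the other way, at 138.6 and 103.9. The summed level of 5 theca and stroma markers was 20102 and 32690.5, nearly all PDGFRA. The 10 granulosa markers summed to 20003 scaled counts in control and 21374 with PMA. They went both ways: FOXL2 had 9976.5 and 5458.5, NR5A1 5075.5 and 4765.7, and STAR 1011.8 and 5383.5. Their part in the septin values was not tested.

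With FSH and SC79 the septins with at least 100 scaled counts stayed close to control. With FSH all 8 septins tested were within 1.2-fold of control either way, beside 93.7% of 12473 genes, and with SC79 all 9 tested were, beside 90.7% of 12484 genes. With FSK 5 of 8 and with PMA 2 of 8 were within that range, beside 52.5% and 55.2% of genes. The largest FSH value among genes tested was 0.19 for SEPT4 [0.97 to 1.36 as a ratio] and the lowest was -0.14 for SEPT11. With SC79 the values of genes tested ran from -0.20 for SEPT11 to 0.15 for SEPT5, and SEPT3, under the minimum, was at -1.13. SEPT5 passed the minimum with SC79 only through the 107.0 scaled counts of that library. Its value turned to -0.52 over protein-coding transcripts only. Over transcripts with at least 80% of words of their own it was -0.61, and both are outside 1.2-fold. Most of these values lay a little under 0, with 8 of 10 genes below 0 in each library, beside 52.8% of genes with FSH and 51.5% with SC79, and medians of -0.08 and -0.12. The 4 treated libraries share 1 control library, so its own sampling enters each of these values.

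Ratios between treated libraries leave out the shared control. Between PMA and FSK, SEPT4 was 3.58-fold lower with PMA [2.71 to 4.81], and no other of the 8 septins tested was at least 2-fold lower, beside 5.13% of genes at least 2-fold lower. SEPT9 and SEPT11 were higher with PMA than with FSK, at log2 ratios of 0.45 and 0.41, and SEPT2 was lower, at -0.37. Between FSK and FSH, SEPT11 was 1.63-fold lower with FSK [1.59 to 1.68], SEPT9 1.57-fold [1.54 to 1.597] and SEPT8 1.53-fold [1.45 to 1.61]. These were the 3 of 8 septins tested beyond 1.5-fold lower, beside 9.6% of genes.

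SEPT5 and SEPT3 had few counts and stood mostly under the minimum of 100. SEPT5, a SEPT2 group subunit known from nerve endings and platelets, had 96.2 scaled counts in control [78.9 to 116.7], 88.4 with FSH, 25.4 with FSK [16.1 to 37.4], 107.0 with SC79 and 30.2 with PMA [20.9 to 43.5]. The FSK and PMA libraries were lower than the other 3. The 2 read-through transcripts had 22.7 and 31.2 of these scaled counts with SC79, 3.71 and 21.5 with FSH, and 5.80 and 1.28 in control. Over protein-coding transcripts only, the log2 ratio of SEPT5 was -0.52 with SC79, -1.60 with FSK and -1.54 with PMA. It was 3.78-fold lower with FSK [2.45 to 6.26] and 3.19-fold lower with PMA [2.09 to 4.85], and did not count as called because its control value is under 100. Only 75.2% of the 31-base words of SEPT5 occur in no other gene, since its read-through transcripts contain GP1BB. SEPT3, a SEPT3 group subunit best known from neurons, had 44.2 scaled counts in control, 41.4 with FSH, 74.9 with FSK, 19.7 with SC79 and 18.8 with PMA. Of the 10 genes it alone was above control with FSK, at 1.69-fold [1.17 to 2.52], and it was 2.35-fold lower with PMA [1.35 to 4.22] and 2.25-fold lower with SC79 [1.26 to 3.95].

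**Figure D4:**
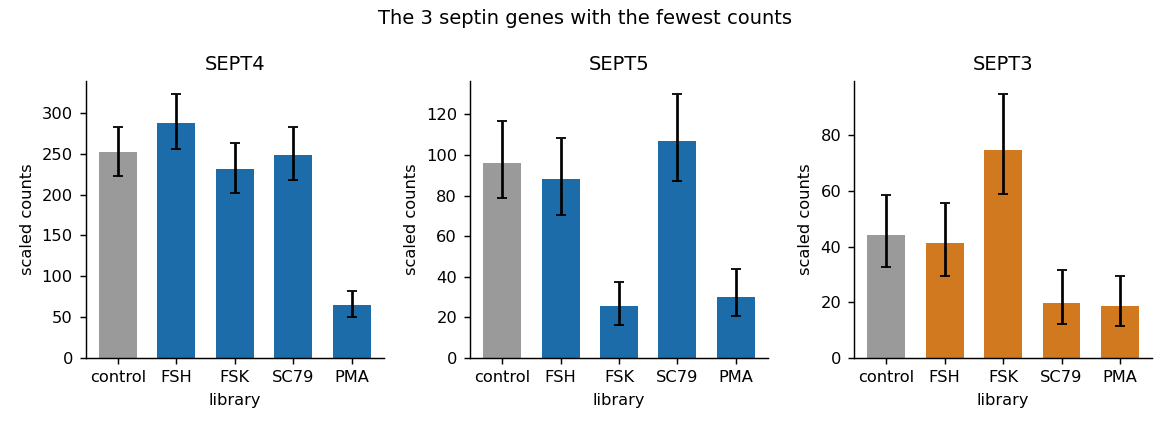
Bars give scaled counts of SEPT4, SEPT5 and SEPT3 in the 5 libraries with exact 95% Poisson intervals for counting error only. SEPT4 is low with PMA alone (64.6), SEPT5 is low with FSK and PMA (25.4 and 30.2), and SEPT3 is highest with FSK (74.9).

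Genes whose 4 log2 ratios to control lay nearest to those of SEPT4, SEPT5 and SEPT3 were picked by Euclidean distance among 12845 genes with at least 100 scaled counts in some library. For SEPT4 they were SESN3, a stress-induced regulator of growth signalling, at a distance of 0.257, VSTM4 at 0.286 and COL3A1, a fibrillar collagen, at 0.289. SESN3 had 6015 scaled counts in control and 1766 with PMA, and COL3A1 had 125516 and 32915. For SEPT5 the nearest were ZNF469 at 0.226, MNS1 at 0.281 and the mitotic cyclin CCNB1 at 0.327. CCNB1 had 4366 scaled counts in control, 1128 with FSK and 1519 with PMA. The genes nearest to SEPT3 lay further off, with NPTX1 at 0.514, MT1F at 0.594 and DUOX2 at 0.651. These distances rest on 5 libraries.

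Proteins that work with septins were followed as lists. In the Borg family, CDC42 effectors that bind septin filaments, with CDC42 and RHOQ, 3 of 6 genes measured were at least 2-fold lower with FSK and 0 with PMA, beside 5.43% and 3.62% of all genes tested. CDC42EP3 had 18827 scaled counts in control and 6350 with FSK (log2 ratio -1.57), and CDC42EP2 had 1260 and 515.7, at -1.29. In contrast RHOQ was at 0.07. The list's median log2 ratio was -0.87 with FSK and -0.16 with PMA, while the septins had -0.17 and -0.44.

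Genes of the cleavage ring and midbody lay much lower than the septins. With FSK 15 of 15 were at least 2-fold lower, with a median log2 ratio of -2.30, and with PMA 11 of 15, with a median of -1.16, beside 5.43% and 3.62% of all genes tested. The same shares of all genes apply to the lists that follow. AURKB, a mitotic kinase of the midzone, had 1317 scaled counts in control and 128.7 with FSK, and KIF20A, a kinesin of the midzone, had 4097 and 932.3 with PMA. Of the actomyosin and cortex list 4 of 23 were at least 2-fold lower with FSK and 2 with PMA. MYL9, the regulatory light chain of contractile myosin, had a log2 ratio of -1.29 with FSK and -1.82 with PMA. In this list 2 genes were above 0 with FSK, led by EZR at 0.69, and 6 with PMA, led by MSN at 0.55. Of the microtubule list 11 of 18 were at least 2-fold lower with FSK and 3 with PMA. With FSK TUBA1B, an alpha-tubulin, was at -1.88, while 4 genes were above 0, led by MAP7 at 0.90. Of the exocytosis list 0 of 18 were at least 2-fold lower in either library, and its medians were 0.16 and 0.20. All lists share the control library.

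**Figure D5:**
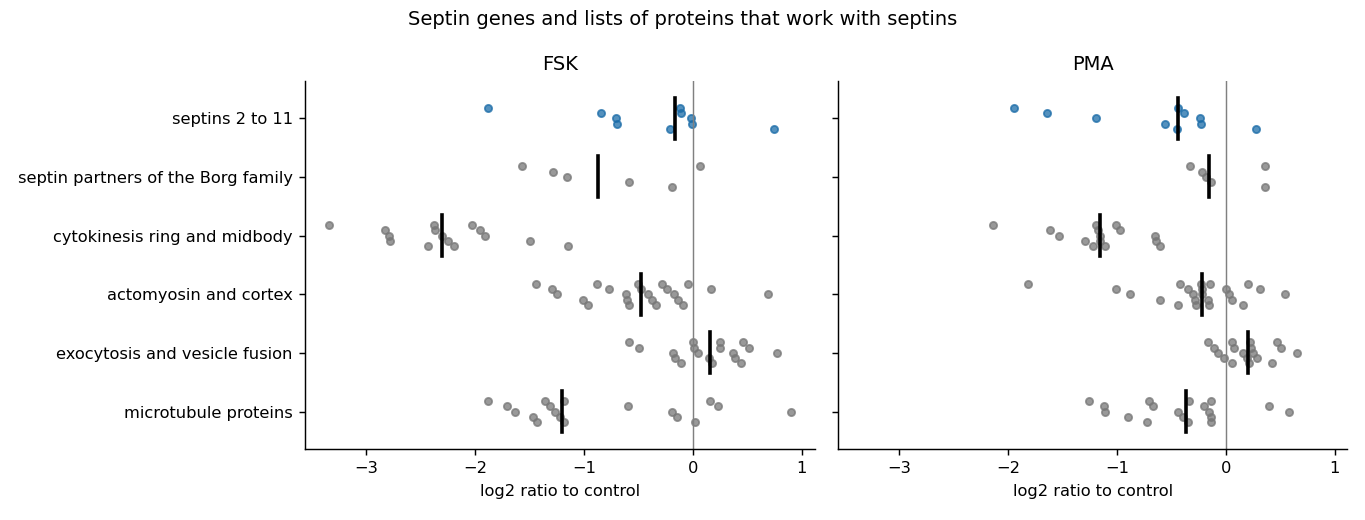
Each point is the log2 ratio to control of 1 gene with FSK or PMA, in rows for the septins (blue) and for 5 lists of proteins that work with septins (grey), and black bars are medians. The cleavage ring list has medians of -2.30 with FSK and -1.16 with PMA, and the septins -0.17 and -0.44.

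Single transcripts were called in both directions in the authors' deposited table. With 1 library a group its p-values cannot rest on replicates, and the dispersion behind them is not stated. In the authors' deposited table, which compares libraries transcript by transcript, 7 of the 224 septin transcripts had an adjusted p below 0.05 with FSH, 9 with FSK, 7 with SC79 and 8 with PMA, beside 1.8%, 2.2%, 1.84% and 2.17% of 179973 transcripts. In the same deposited table LH, whose library is not used here, had 11, beside 2.74%, and the fullest transcript of each septin gene had an adjusted p of at least 0.894. Over all 5 comparisons 20 septin transcripts were past 0.05 in that deposited table. They held at most 19.7% of their gene in any library, and 10 of the 20 have no 31-base word to themselves. SEPT2-206 had 0.540 estimated counts in control and 375.4 with FSH, 244.0 with FSK, 415.3 with SC79 and 282.7 with PMA. The authors' deposited table gives it log2 fold changes of 9.24 with FSH and 9.44 with SC79. The gene as a whole had a log2 ratio of -0.06 with FSH, and SEPT2-206 held at most 1.26% of it. SEPT2-206 and the main form SEPT2-203 have 0 words of 31 bases to themselves, so that reads cannot be assigned to either by a stretch of that length.

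Within genes, some minor forms stood apart with PMA. SEPT8-210 had 636.0 scaled counts in control, 1024 with FSH, 482.6 with FSK, 427.4 with SC79 and 151.8 with PMA. Its share of SEPT8 was 14.99% in control and 4.88% with PMA. SEPT6-205 had 128.1 scaled counts in control and 24.1 with PMA. Neither has a 31-base word to itself. SEPT11 counts were better placed: SEPT11-201 held 88.7% of the gene in control and 88.8% with FSK, it has 3615 words of its own, and its log2 ratio with FSK was -0.84.

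The date-like names reach beyond these 10 genes. Names differ between the count tables and the comparison table for 245 transcripts, and all 245 carry one of 14 date-like names. Of these 13 are septins, with SEPT1, SEPT12 and SEPT14 besides the 10, and 1 is MARS2, the mitochondrial methionyl-tRNA synthetase, written 02-mars. SEPT1 had 130.1 to 214.0 scaled counts and was highest with FSK, SEPT14 had 64.1 to 77.5 and SEPT12 at most 1.06. Of 20 septin pseudogenes listed, only SEPT7P2 reached 100 scaled counts, with 396.7 to 532.4, against 12927 to 15190.2 for SEPT7.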

How the data were processed

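Polyadenylated RNA of KGN cells was sequenced as paired-end NEBNext Ultra libraries, 1 per group, from 270 ng of RNA pooled from 3 cultures (90 ng each), per the labels' protocols. For strand specificity, transcript index and genome build the answer is not given in the sources used here. Trimmomatic, kallisto and edgeR are named, with no version, in the submitters' processing notes. The authors deposited estimated counts per transcript and a normalized signal, which is the estimated counts times 1 constant per library. The authors' deposited table of comparisons gives log2 fold changes and p-values per transcript against control.

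Estimated counts were summed by gene name after reading date-like names through the transcript identifiers, rounded for scaling, and scaled by TMM (edgeR 4.0.16, R 4.3.3). Transcripts without a gene name (at most 0.0680% of counts) were left out. Log2 ratios used a pseudocount of 1, and intervals are exact conditional (Clopper-Pearson) ones at 95%. They hold for counting error alone, because PCR copies of 1 molecule cannot be told apart here. With 1 library a group there is no p-value across genes. Lengths, starts and exons are from GENCODE release 29 (216 of 224 septin transcripts matched), and 97.6% of counts lay on transcripts with a length. Python 3.11.15, numpy 2.4.6, pandas 2.3.3, scipy 1.17.1 and matplotlib 3.10.9 did the rest. The ratio and call steps were tested on simulated data.

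Named were the 10 genes, their transcripts with at least 5% of a gene in some library, the 2 highest and 2 lowest of each partner list per treatment, of which some are printed, and the 3 nearest patterns of each gene at least 2-fold from control. SEPT2-206, the SEPT9 starts and the printed promoter windows were chosen after their values were seen. The members and lists were chosen with earlier results of these data known. Other scalings, pseudocounts, transcript sets and limits were tried.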

Additional observations from a re-analysis of the deposited data

Results flagged for a closer look

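A comparison of luteinizing hormone (LH) with control stands in the authors' deposited table, and no LH library was analysed here. In it 11 of 224 septin transcripts had an adjusted p below 0.05, beside 2.74% of all transcripts. Of these, 6 had positive log2 fold changes in the authors' deposited table, namely 9.51 for SEPT2-206, 7.44 for SEPT4-205, 7.21 for SEPT4-214, 7.28 for SEPT7-213, 11 for SEPT8-204 and 8.48 for SEPT11-211. The control library had at most 0.540 estimated counts of any of them. Of the 6, SEPT2-206, SEPT7-213 and SEPT8-204 also had an adjusted p below 0.05 and positive values with FSK in the authors' deposited table, at 8.70, 7.47 and 7.67, and SEPT4-214 did with SC79, at 7.31. All comparisons there share the control, which is 1 library.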

How the results depend on the processing

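No paired analysis was possible because each group has 1 library, and for the same reason no library could be left out of a group. The authors' normalized signal is not equalised for depth and moved the median of all genes by -0.15 with FSH, -0.17 with FSK, -0.27 with SC79 and -0.23 with PMA. On it the septin medians were -0.24, -0.34, -0.39 and -0.68, which is the same shift, and 2 septins were at least 2-fold lower with FSK (SEPT5 and SEPT11) and 2 with PMA (SEPT4 and SEPT5). Scaling by totals alone gave a PMA median of -0.38. RLE and upper-quartile factors moved none of the 40 ratios to control out of their counting intervals. The counts past the limit were small and followed the limit. With no minimum they were 1 with FSK (SEPT5), 1 with SC79 (SEPT3) and 3 with PMA (SEPT3, SEPT4 and SEPT5). With a minimum of 500 no septin was called with PMA (0), and with a 1.5-fold limit 3 were with FSK. The SEPT4 call with PMA was lost only with the minimum of 500. Among transcripts with at least 80% of words of their own, SEPT5 was at -0.61 with SC79, and among protein-coding ones at -0.52, against 0.15 for all of its transcripts. Of 245 transcript shares, 125 left their counting interval when counted per length, and SEPT9-207 then had 8.78% of SEPT9 in control and 18.5% with FSK. The starts of SEPT9-203 and SEPT9-207 had log2 ratios with FSK of -1.14 and 0.21 on the authors' signal, a check chosen after seeing the data. The values of SEPT3 and SEPT5 are limited by depth.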
